A study of Danio rerio with 5 samples.

Results

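The genes described here code for the proteins of the cytosolic ribosome, taken as every probe set of a zebrafish expression array whose gene symbol in the array's annotation is that of a ribosomal protein of the large subunit (rpl) or the small subunit (rps). The rule found 77 of the 15617 probe sets on the array, for 73 of its 8793 genes with a symbol. By symbol alone, 45 of these 73 were placed in the large and 28 in the small subunit. The relative rpl7l1 is thus counted with the large subunit. The annotation lists rplp2l of the rule under its current symbol, rplp2b, and it was kept. The kinase genes beginning rps6k (5 probe sets), rps19bp1 (2 probe sets) and 1 probe set with rpl32 as one of several symbols were left out. All 73 genes had a probe set that passed the filter on low values, and 76 of the 77 probe sets did. The exception was a second probe set of rpl21.

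Total RNA came from whole zebrafish embryos at 72 h after fertilization, descended from wild-type fish, and each sample was hybridised to 1 Affymetrix array. Control morphants (2 arrays) and Bdh2 morphants (2 arrays) had received 1 to 2 nL of morpholino at 130 µmol/L as embryos of 1 to 2 cells, and the single array with ectopic Bdh2 came from Bdh2 morphants that were also given a synthetic capped mRNA of mouse bdh2 at 50 µg/ml. All 5 arrays therefore carry a morpholino, embryos were not sorted by tissue, and the labels say neither how many embryos were pooled nor whether replicates came from separate clutches, so the p-values measure the spread between these samples only. In such bulk samples, fewer cells of a type and less RNA per cell cannot be told apart.

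The ribosome is built from ribosomal RNA and a set of proteins, most of them present once per particle, so that cells make the proteins of both subunits in matched amounts. The large subunit forms peptide bonds and carries a protein stalk that calls in elongation factors, and the small subunit reads the messenger RNA. In vertebrates the mRNAs of ribosomal proteins begin with a run of pyrimidines, through which mTORC1 and the RNA-binding protein Larp1 control their translation together, and in the zebrafish embryo loss of single ribosomal proteins is known for anaemia and for activation of p53.

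Each value is the intensity of a probe set, linear in scale, and differences are given as differences of log2(intensity + 16) with the standard error (SE) of a limma fit to all 5 arrays. Median intensity over the probe sets other than controls ran from 142 in Bdh2 morphant replicate 2 to 174 with ectopic Bdh2. The highest intensity over all probe sets, control probe sets included, ran from 33261 with ectopic Bdh2 to 52273 in Bdh2 morphant replicate 1. The bdh2 probe set itself read 344 and 335 in controls, then 235 and 643 in Bdh2 morphants and 142 with ectopic Bdh2. The labels do not say how the morpholino acts, and whether this zebrafish probe set reads the mouse mRNA was not tested. Markers fixed for tissues of a whole embryo (erythroid, muscle, lens, neuron, liver, pancreas and dividing cells) had a tested gene in each list, and fabp10a, cel.1 and mcm6 lay below the filter.

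The ribosomal protein genes were among the brightest features of every array. Between 59 and 64 of the 100 brightest probe sets of an array were members, and the members took 15.6% and 14.4% of the summed intensity in controls, then 16.1% and 16.8% in Bdh2 morphants and 12.6% with ectopic Bdh2. The median over the 73 genes was 29430 and 25142 in controls, then 28876 and 31484 in Bdh2 morphants and 20161 with ectopic Bdh2. Bdh2 morphant replicate 2 was thus the highest array, the array with ectopic Bdh2 the lowest, and the 2 controls lay further apart than the Bdh2 morphants did from each other.

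Large and small subunit genes kept together across the arrays. Each gene was set against its own mean over the 5 arrays, and the median of these deviations was taken per subunit. For the large subunit it was 0.11 and -0.06 in controls, then 0.12 and 0.23 in Bdh2 morphants and -0.42 with ectopic Bdh2. For the small subunit it was 0.11, -0.10, 0.18, 0.23 and -0.39 in the same order. The large minus small difference within an array ran from -0.06 to 0.04 and had no constant sign within the controls or within the Bdh2 morphants. The median over all tested probe sets moved the other way on 2 arrays, at -0.09 in Bdh2 morphant replicate 2 and 0.10 with ectopic Bdh2. Over the 86 other probe sets with a mean intensity above 15000 it ran much as in the subunits. It was 0.17 and -0.07 in controls, then 0.18 and 0.21 in Bdh2 morphants and -0.35 with ectopic Bdh2.

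**Figure D1:**
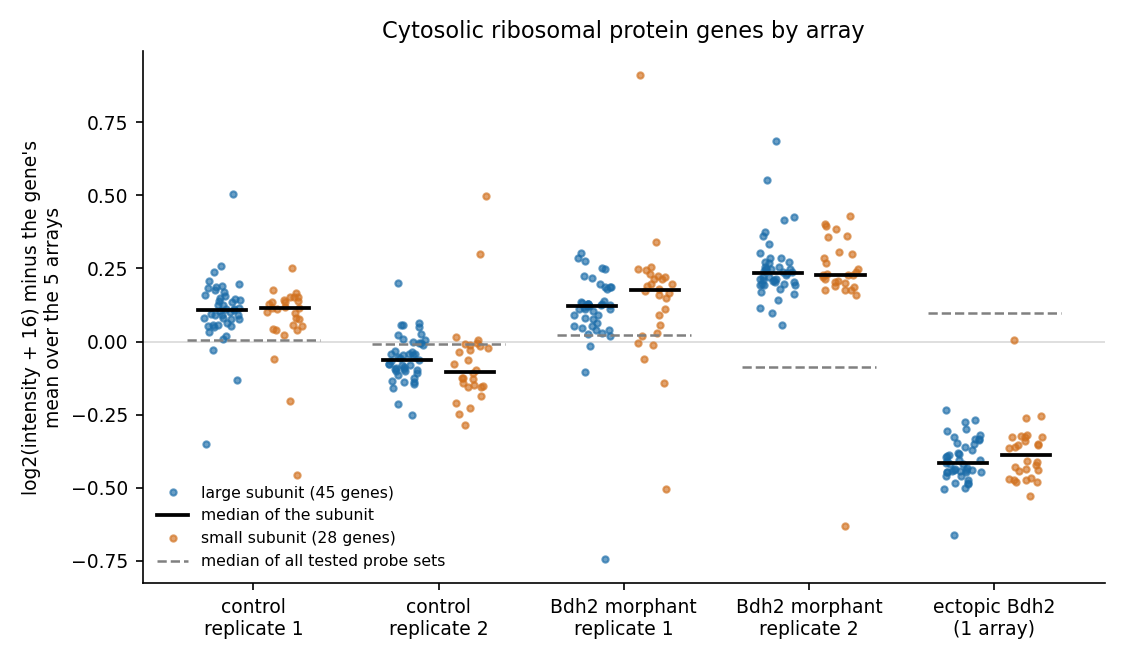
Log2(intensity + 16) of each gene minus its mean over the 5 arrays (vertical axis) on each array (horizontal axis), with 45 large subunit and 28 small subunit genes as points, their medians as solid bars and the median of all 9301 tested probe sets as dashed lines. Both subunits sit lowest with ectopic Bdh2, at -0.42 and -0.39, and highest in Bdh2 morphant replicate 2, while single points far from the rest are the paralogues rpl22l1, rps27.2 and rps27l and the relative rpl7l1.

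Bdh2 morphants had slightly higher values of ribosomal protein genes than controls. Of the 73 genes, 71 were higher, against 49.3% of all tested probe sets, with a median log2 difference of 0.18 where the median of all tested probe sets was -0.01. Of 86 other probe sets with a mean intensity above 15000, 63 were higher, with a median of 0.10. The member median was 0.16 for the large subunit (44 of 45 genes higher) and 0.19 for the small subunit (27 of 28 higher). Both Bdh2 morphants lay above both controls for 41 genes, 23 of the large and 18 of the small subunit, against 10.3% of all tested probe sets, and both lay below for 0 genes, against 14.1%. In the same comparison the median difference was -0.71 over 8 neuron markers (0 higher) and -1.32 over 3 lens markers (0 higher). It was -0.23 over 7 muscle markers (0 higher) and -0.69 over 5 erythroid markers (1 higher). It was -0.06 over 3 liver markers (0 higher) and -0.33 over 3 pancreas markers (0 higher). Markers of dividing cells went the other way, with a median of 0.09 and 5 of 8 higher. Summed marker intensity overlapped between the groups for the lens (9192 and 3207 in controls, then 3707 and 2233 in Bdh2 morphants). It also overlapped for erythroid markers (76100 and 35220, then 61770 and 34590), and for liver a Bdh2 morphant was highest (38460). Pancreas markers overlapped too (508 and 412.5, then 420.3 and 326.8). Neuron markers (15870 and 14020, then 13830 and 6921) and muscle markers (186300 and 163000, then 159500 and 143600) did not overlap and were lower in Bdh2 morphants. Markers of dividing cells (26330 and 27070, then 33390 and 28050) did not overlap either and were higher in Bdh2 morphants. The part of these tissues in the values of the ribosomal protein genes was not tested.

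None of these differences passed the threshold. No gene had an adjusted p under 0.05 in limma's moderated test, against 0% of all tested probe sets in either direction, and no gene had an unadjusted p under 0.05, against 0.161% of probe sets higher and 1.92% lower. Without control replicate 1, 10 genes had an unadjusted p under 0.05 as higher, against 0.57% of all tested probe sets. The median SE of a gene was 0.17, about as large as the median difference. Within replicate number 1 the median was 0.03, with 47 of 73 genes higher in the Bdh2 morphant, and within number 2 it was 0.32, with 72 of 73 higher. After quantile normalisation, which gives every array the same distribution of values, the median was 0.04 and 51 genes were higher, against 54.5% of all tested probe sets. There, too, 0 genes passed an adjusted or an unadjusted threshold, against 0% and 0.28% of probe sets higher and 0% and 1.75% lower.

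Among large subunit genes of this comparison, rpl5a, rpl7l1 and rpl19 were at the upper end. The proteins of rpl5a and rpl5b, a duplicated pair, bind with Rpl11 to the smallest ribosomal RNA, and in mammals this complex also binds the p53 regulator Mdm2. The rpl5a intensity was 21092 and 19538 in controls, then 22757 and 27772 in Bdh2 morphants and 15003 with ectopic Bdh2. Both Bdh2 morphants exceeded both controls, and the difference was 0.31 (SE 0.19, n = 2 and 2, limma adjusted p = 1.00). The rpl5b intensity was 23096 and 25421, then 25020 and 32821, and 21508 with ectopic Bdh2. Here a control lay above a Bdh2 morphant, so the groups overlapped at a difference of 0.24 (SE 0.19). The rpl11 intensity was 28056 and 25978, then 29493 and 36856, and 19548 with ectopic Bdh2, without overlap, at a difference of 0.29 (SE 0.18). After quantile normalisation the difference was 0.23 for rpl5a, 0.12 for rpl5b and 0.18 for rpl11.

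Rpl19 forms a bridge to the small subunit. Its intensity was 33788 and 30298 in controls, then 40107 and 38595 in Bdh2 morphants and 22970 with ectopic Bdh2. Controls and Bdh2 morphants did not overlap, at a difference of 0.30 (SE 0.16), or 0.13 after quantile normalisation. For rpl31, whose protein sits near the exit of the peptide tunnel, the difference was also 0.30 (SE 0.20). At the lower end stood rpl22l1 (-0.28, SE 0.46) with rpl38 (0.02, SE 0.17), whose protein is needed for translation of Hox mRNAs in the mouse, and rpl39 (0.02, SE 0.18), whose protein lines the peptide tunnel. The rpl38 intensity was 29828 and 27149 in controls, then 30514 and 27287 in Bdh2 morphants, so that each Bdh2 morphant lay close to the control of its own number. After quantile normalisation the rpl38 difference was -0.16.

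Among small subunit genes, rps4x had the highest difference. Its intensity was 37124 and 29991 in controls, then 44516 and 39197 in Bdh2 morphants and 27559 with ectopic Bdh2, with no overlap between controls and Bdh2 morphants, and the difference was 0.32 (SE 0.18, adjusted p = 1.00). The difference was 0.27 (SE 0.16) for rpsa, a small subunit protein also described as a laminin receptor, 0.25 (SE 0.16) for rps27a, which is made as a fusion with ubiquitin, and 0.20 (SE 0.17) for rps3, at the entry of the mRNA channel. It was 0.22 (SE 0.17) for rps6, the target of the S6 kinases, 0.19 (SE 0.19) for rps19 and 0.18 (SE 0.17) for rps14, a pair whose human genes are linked to anaemias. The lowest was rps27.2 (-0.10, SE 0.36). After quantile normalisation the difference was 0.19 for rps4x, 0.09 for rpsa, 0.07 for rps27a and 0.04 for rps3. It was then 0.07 for rps6, 0.06 for rps19, -0.01 for rps14 and -0.17 for rps27.2.

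The array with ectopic Bdh2 had lower values than the Bdh2 morphants for nearly the whole family. Of 73 genes, 72 were lower, against 42.4% of all tested probe sets, and 1 was higher, rps27.2, against 57.6%. The median log2 difference was -0.59, a 1.51-fold lower level, where the median of all tested probe sets was 0.12. It was -0.59 for the 45 large subunit genes and -0.58 for the 28 small subunit genes. The array lay below both Bdh2 morphants for 70 genes, against 29.9% of all tested probe sets, and below all 4 other arrays for 69 genes, against 21.9%. The genes outside that count were rpl22l1, rpl7l1, rps27.2 and rps27l.

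No gene passed the threshold here either, against 0.505% of all tested probe sets lower and 0.0215% higher at an adjusted p under 0.05. The lowest adjusted p of a member was 0.236 (limma, 1 array against 2), and 53 genes had an unadjusted p under 0.05, all of them lower, against 5.56% of all tested probe sets lower and 6.76% higher. Without control replicate 1 or 2, which enter only the estimate of the spread, 7 or 10 genes passed as lower, against 1.62% or 1.64% of all tested probe sets. The unadjusted count of 53 was 18 without Bdh2 morphant replicate 1 (7.33% of all tested probe sets lower), 3 without replicate 2 (3.75%), 35 without the filter (3.83%) and 0 without the intensity trend (4.5%). The differences of the genes had an SD of 0.13 over the family, beside a median SE of a single gene of 0.21. That SE includes any shift between arrays that the members share, which leaves their order unchanged. The order of the members was not tested.

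Other bright probe sets had lower values on this array too. Among tested probe sets that are no members, the median log2 difference between the array with ectopic Bdh2 and the Bdh2 morphants was 0.19 at mean intensities up to 1000 (6943 probe sets), 0.00 from 1000 to 5000 (1917), -0.26 from 5000 to 10000 (218) and -0.39 from 10000 to 15000 (61). Above 15000, 83 of 86 such probe sets were lower, with a median of -0.51 and no steady trend with level. Of the members, 2 probe sets from 1000 to 5000 had a median of -0.49 and 4 from 5000 to 10000 one of -0.25. From 15000 to 20000, 3 member probe sets had a median of -0.41 and 36 other probe sets one of -0.54. From 20000 to 25000 it was -0.58 for 18 member probe sets and -0.46 for 27 others. Above 25000, 49 member probe sets had a median of -0.60 and 23 other probe sets one of -0.52. After quantile normalisation the member median was -0.03, with 45 of 73 genes lower against 48.9% of all tested probe sets. No gene then had an unadjusted p under 0.05, against 5.85% of probe sets lower and 6.01% higher, or an adjusted one, against 0.634% and 0.0215%.

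Quantile normalisation takes its upper end largely from the members, which are most of the brightest probe sets. In an alternative chosen after seeing the data, the curve was taken from probe sets that are no members and then applied to the members. The member median was then -0.09 and 52 of 73 genes were lower, against 4575 of 9301 tested probe sets. Centring each array on its median moved the member median to -0.77, with all 73 lower, against 4970 of 9301 tested probe sets. The size of the difference thus rested on the scaling between arrays, and 28 genes lay above 0 after quantile normalisation. Markers of tissues differed on the array with ectopic Bdh2 in both directions. The summed intensity of 7 muscle markers was 28510 there against 143600 to 186300 on the other arrays, and that of 4 liver markers was 7049 against 27960 to 38460. Of the tested markers, 7 of 7 for muscle and 3 of 3 for liver were lower than in Bdh2 morphants, whereas 8 of 8 for neurons (median 1.02), 3 of 3 for the lens (median 1.65) and 7 of 8 for dividing cells (median 0.32) were higher. Their part in the values of the ribosomal protein genes was not tested.

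**Figure D2:**
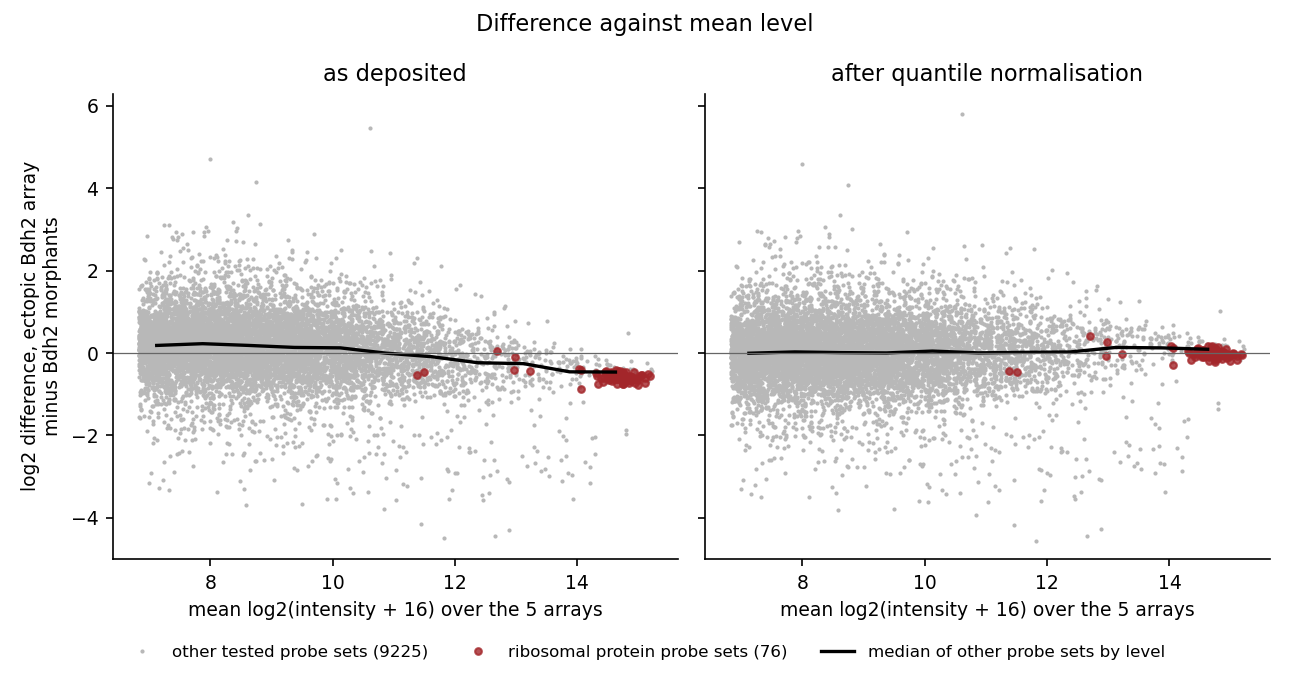
Log2 difference of the ectopic Bdh2 array minus Bdh2 morphants (vertical axis) against mean log2(intensity + 16) over the 5 arrays (horizontal axis), for 76 ribosomal protein probe sets (red) and 9225 other tested probe sets (grey), with the median of the others by level as a line. As deposited, the line falls with level and most members lie at the bright end. Above an intensity of 25000 the median was -0.60 for members and -0.52 for the others. From 15000 to 20000 it was -0.41 for 3 members and -0.54 for 36 others. After quantile normalisation the line and the members both lie near 0.

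The stalk genes of the large subunit had the order of groups seen in the family medians. The rplp0 intensity was 39179 and 31514 in controls, then 41839 and 41460 in Bdh2 morphants and 25164 with ectopic Bdh2. The last array was lowest and the Bdh2 morphants highest, with a difference of -0.73 (SE 0.21, limma adjusted p = 0.300) from Bdh2 morphants. The rplp2 intensity was 16742 and 17164, then 17525 and 20283, and 14171 with ectopic Bdh2, in the same order of groups at a smaller difference of -0.41 (SE 0.23). Its duplicate rplp2b read 27620 and 23998, then 28222 and 29708, and 19820, with a difference of -0.55 (SE 0.21). After quantile normalisation the 3 differences were -0.17, 0.13 and 0.02.

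Other large subunit genes spread around the median of -0.59. The lowest was rpl29, a gene that supports growth but is not essential in the mouse. Its intensity was 20058 and 17250 in controls, then 17490 and 21811 in Bdh2 morphants and 10745 with ectopic Bdh2. The array with ectopic Bdh2 stood well below the rest, at -0.86 from Bdh2 morphants (SE 0.25, limma adjusted p = 0.305). The difference from controls was -0.79 (SE 0.25, limma adjusted p = 0.498), and after quantile normalisation the differences were -0.29 and -0.20. Next were rpl19 (-0.78, SE 0.19), rpl31 (-0.75, SE 0.24) and rpl11 (-0.75, SE 0.22). The difference was -0.74 (SE 0.23) for rpl5a and -0.41 (SE 0.24) for rpl5b.

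Further large subunit genes differed from Bdh2 morphants by -0.64 to -0.44 on the array with ectopic Bdh2. Rpl3 reaches toward the site where peptide bonds form, and its probe sets differed by -0.52 (SE 0.22) and -0.44 (SE 0.23). Rpl10 joins the large subunit late in its maturation, and rpl10 read 34246 and 29189 in controls, then 38914 and 36356 in Bdh2 morphants and 24183 with ectopic Bdh2. Bdh2 morphant replicate 1 was its highest array and the array with ectopic Bdh2 its lowest, at -0.64 (SE 0.20) from Bdh2 morphants. The difference was -0.62 (SE 0.21) for rpl13a, whose protein also silences mRNAs in mammalian immune cells, -0.53 (SE 0.21) for rpl36a and -0.49 (SE 0.21) for rpl39. After quantile normalisation it was between -0.07 and 0.05 for the brighter rpl3 probe set, rpl10, rpl13a, rpl36a and rpl39.

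In the small subunit, rps29 had the lowest difference. Its intensity was 29552 and 27286 in controls, then 31366 and 32016 in Bdh2 morphants and 18968 with ectopic Bdh2, so that replicates lay close and the last array stood far below, at -0.74 (SE 0.19, adjusted p = 0.277). The difference was -0.70 (SE 0.21) for rps6, -0.64 (SE 0.23) for rps19, -0.64 (SE 0.20) for rps14, -0.60 (SE 0.21) for rps4x, -0.55 (SE 0.20) for rpsa, -0.54 (SE 0.19) for rps27a and -0.43 (SE 0.21) for rps3. The rps6 intensity was 28870 and 27099, then 29574 and 35748, and 20060 with ectopic Bdh2. Among these 8 genes rps29, rps6, rps19, rps14, rps4x and rpsa stayed below 0 after quantile normalisation, the lowest at -0.17, while rps27a was at 0.01 and rps3 at 0.16.

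**Figure D3:**
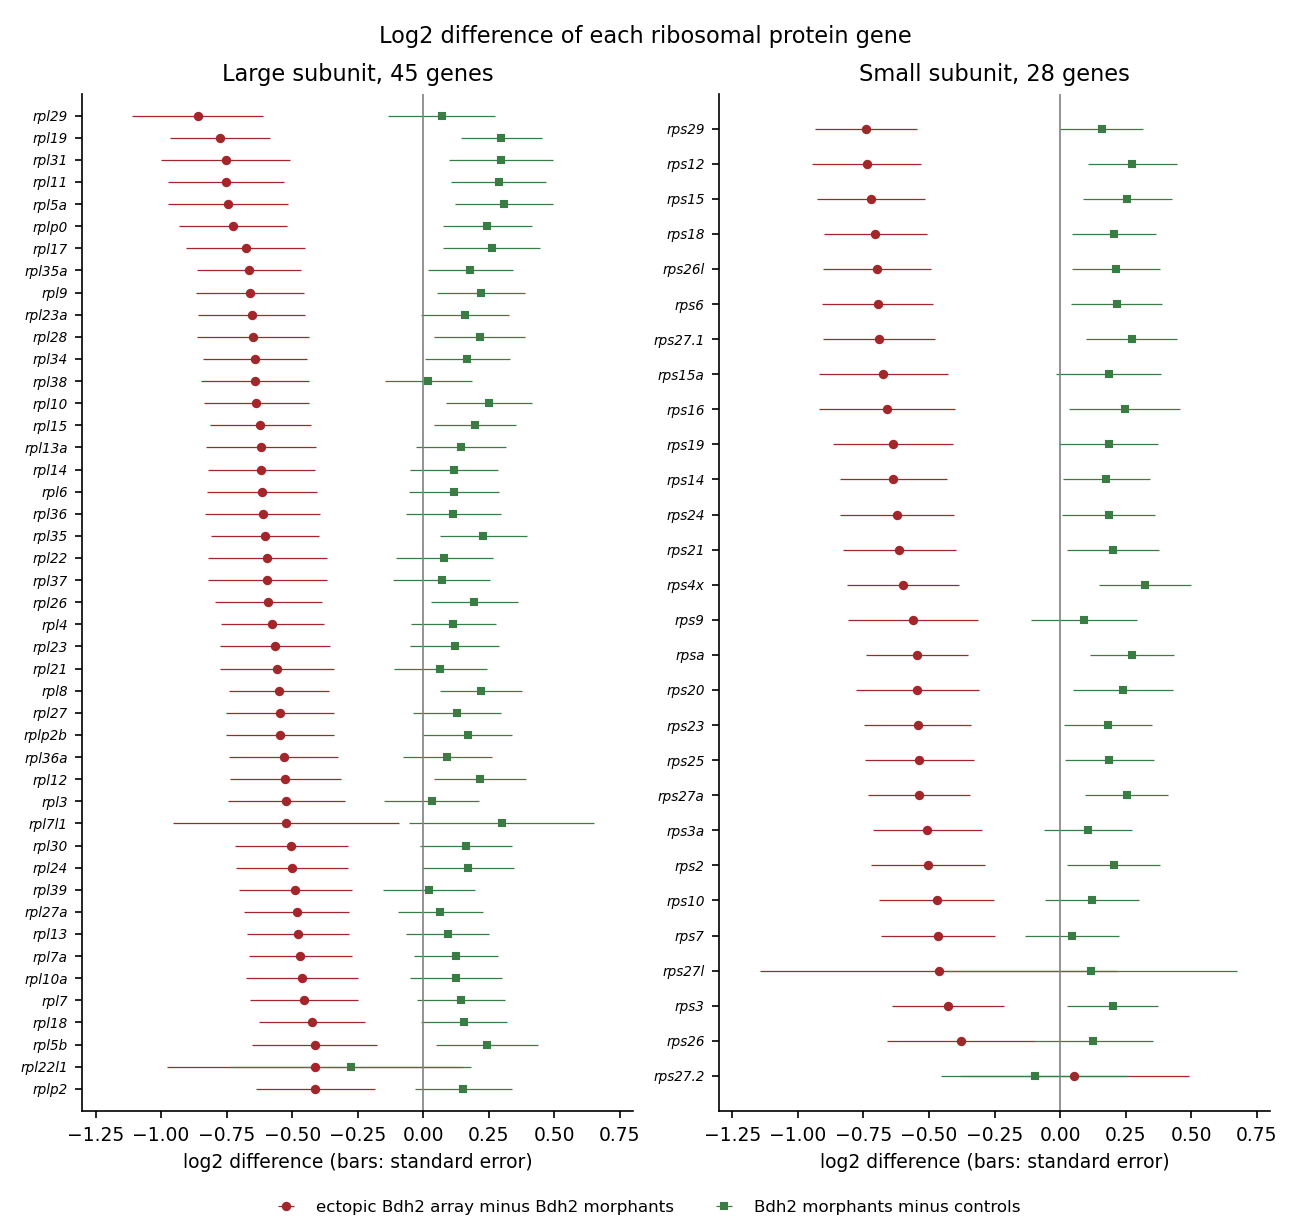
Log2 difference of each gene (horizontal axis, bars are standard errors) for the ectopic Bdh2 array minus Bdh2 morphants (red circles) and Bdh2 morphants minus controls (green squares), in 45 large subunit genes (left) and 28 small subunit genes (right), ordered by the first difference. All red circles except that of rps27.2 lie below 0, and the 2 comparisons share the Bdh2 morphant arrays.

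Against controls, the array with ectopic Bdh2 was lower for all 73 genes, against 41.4% of all tested probe sets, with a median of -0.42 where that of all tested probe sets was 0.12. Of the 86 other probe sets above 15000, 82 were lower, with a median of -0.37. The member median was -0.44 for the large and -0.41 for the small subunit. The array lay below both controls for 70 genes, against 28.9% of all tested probe sets, the others being rpl7l1, rps27.2 and rps27l. No gene passed the threshold, against 0.667% of all tested probe sets lower and 0% higher, and 9 genes had an unadjusted p under 0.05, all lower, against 4.67% of probe sets lower and 2.35% higher. That count was 45 without control replicate 2 (4.39% of all tested probe sets lower), 3 without control replicate 1 (4.62%) and 2 without either Bdh2 morphant replicate (5.38% and 5.33%). It was 5 with the replicate block (6.9%), 3 without the filter (3.48%) and 0 without the intensity trend (4.31%). The lowest differences were those of rpl29, rpl22l1 (-0.69, SE 0.56), rpl38 (-0.62, SE 0.21) and rps29 (-0.58, SE 0.19), and the nearest to 0 were rps27.2 (-0.04, SE 0.44), rpl5b (-0.17, SE 0.24), rpl7l1 (-0.22, SE 0.43) and rps3 (-0.23, SE 0.21). After quantile normalisation the median was 0.01, with 41 of 73 genes higher against 54.5% of all tested probe sets. No gene then had an unadjusted p under 0.05, against 5.07% of probe sets lower and 2.67% higher, or an adjusted one, against 0.72% lower. This comparison shares its arrays with the other 2 comparisons.

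Replicates lay far apart for 4 genes, 3 of them paralogues and the fourth rpl7l1. The SD between replicates on the log2 scale, pooled over controls and Bdh2 morphants, had a median of 0.13 over the 73 genes and 0.33 over all tested probe sets. It was 0.91 for rps27l, 0.76 for rpl22l1, 0.52 for rps27.2 and 0.43 for rpl7l1, and no other gene exceeded 0.27. Each of the 4 had a mean intensity under 10000, while 18 probe sets of the family had a mean from 20000 to 25000 and 49 a higher one.

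Rps27l is a relative of Rps27 whose human gene is induced by p53. Its intensity was 2096 and 4081 in controls, then 5437 and 1855 in Bdh2 morphants and 2301 with ectopic Bdh2. The replicates went opposite ways, with a morphant-control difference of 1.37 in number 1 and -1.13 in number 2, so the mean difference of 0.12 (SE 0.56) was far within the spread. Among 13 tested genes of the p53 response, 6 were higher and 7 lower in Bdh2 morphants, with a median of -0.01. Of all tested probe sets 49.3% were higher and 50.7% lower. Of the 13 genes, 0 passed the threshold in any of the 3 comparisons. For all tested probe sets the share was 0% between Bdh2 morphants and controls. It was 0.527% for the ectopic array against Bdh2 morphants and 0.667% against controls. The p53 response gene btg2, an antiproliferative gene, read 916 and 659 in controls, then 1199 and 1154 in Bdh2 morphants and 1895 with ectopic Bdh2. The phlda3 gene differed by 0.61 (SE 0.62) between Bdh2 morphants and controls.

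Rpl22 and its paralogue Rpl22l1 bind RNA outside the ribosome too, and in zebrafish they have been given opposing roles in the emergence of blood stem cells. The rpl22 intensity was 25099 and 21424 in controls, then 22780 and 26378 in Bdh2 morphants and 16229 with ectopic Bdh2. The rpl22l1 intensity was 11354 and 7970, then 4775 and 12890, and 5896. The Bdh2 morphant replicates held both the lowest and the highest rpl22l1 value, and the morphant-control difference was -1.25 in number 1 and 0.69 in number 2. For rpl22 the same differences were -0.14 and 0.30.

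The rps27 genes code for a zinc-finger protein of the small subunit. The brightest rps27.1 probe set read 29430 and 24629 in controls, then 31296 and 33868 in Bdh2 morphants and 20161 with ectopic Bdh2, like the family, at -0.69 (SE 0.21) between the last array and Bdh2 morphants. The 2 other rps27.1 probe sets, both of a kind that can match several transcripts of a gene, differed by -0.42 (SE 0.28) and -0.10 (SE 0.26). Between Bdh2 morphants and controls the brightest probe set differed by 0.27 (SE 0.17) and these 2 by 0.06 (SE 0.23) and -0.13 (SE 0.21). For the last of them, both Bdh2 morphants lay below both controls. The rps27.2 intensity was 5748 and 8146 in controls, then 4668 and 8761 in Bdh2 morphants and 6645 with ectopic Bdh2. Both replicates 2 were above both replicates 1, and the ectopic array lay between, at 0.06 (SE 0.44) from Bdh2 morphants. Near-identical copies can share signal on the array, so values of such pairs are uncertain.

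Rps26, at the exit of the mRNA channel, is another paralogue pair. The rps26 intensity was 16970 and 16428 in controls, then 15111 and 21955 in Bdh2 morphants and 14004 with ectopic Bdh2. The rps26l intensity was 22616 and 21751, then 24939 and 26473, and 15828. Controls and Bdh2 morphants overlapped for rps26 and not for rps26l, and the ectopic array lay below all 4 others for both, at -0.38 (SE 0.28) and -0.70 (SE 0.20) from Bdh2 morphants. The rpl7l1 gene, a relative of rpl7, read 2070 and 3045, then 2462 and 3884, and 2149, with replicate 2 above replicate 1 in both groups. Its difference was 0.30 (SE 0.35) between Bdh2 morphants and controls and -0.52 (SE 0.43) between the last array and Bdh2 morphants, and after quantile normalisation these were 0.24 and -0.45.

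**Figure D4:**
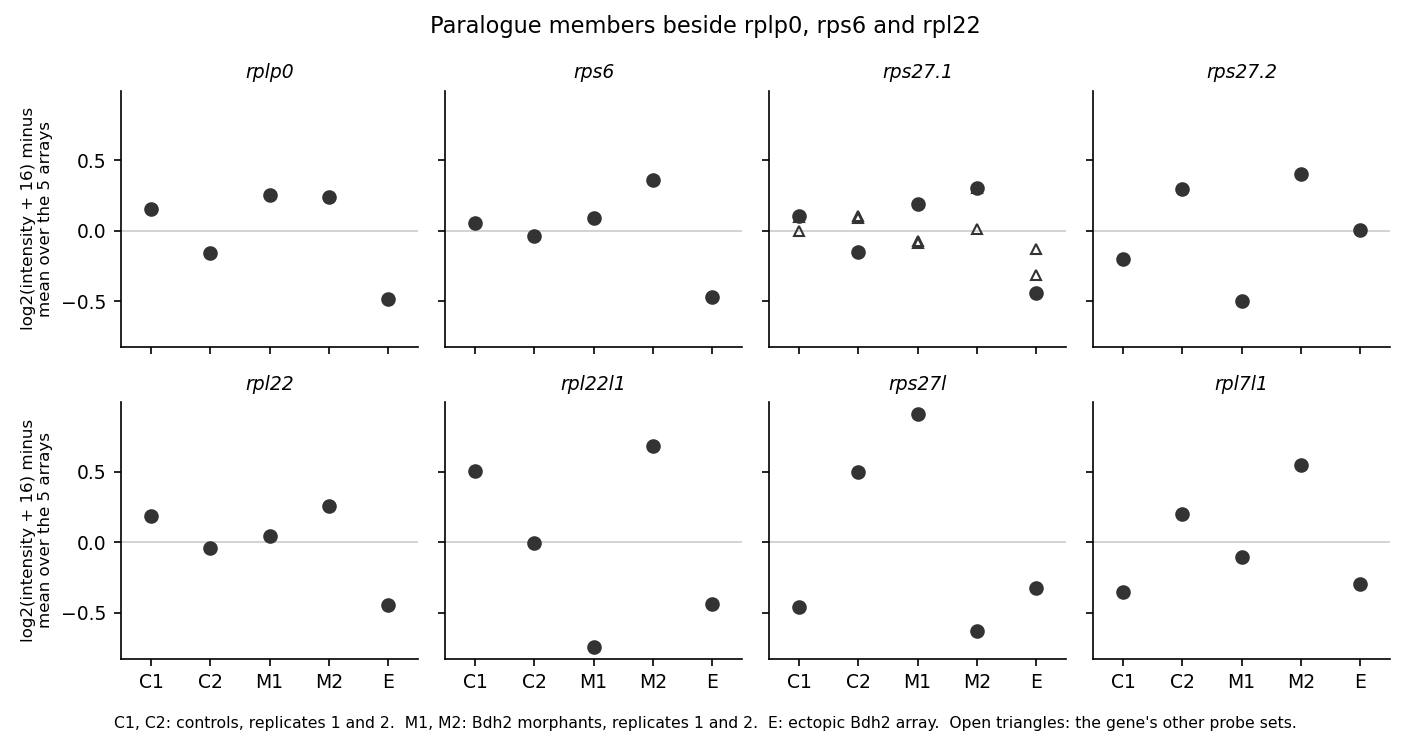
Log2(intensity + 16) minus the probe set's mean over the 5 arrays (vertical axis) on each array (horizontal axis: controls C1 and C2, Bdh2 morphants M1 and M2, ectopic Bdh2 array E) for 8 genes, with the other probe sets of rps27.1 as open triangles. In rplp0, rps6 and rpl22 the ectopic array is lowest, whereas in rpl22l1 and rps27l a Bdh2 morphant is lowest and the replicates of a group lie far apart.

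Ribosomal proteins outside the naming rule behaved alike. The faua gene, whose protein joins the small subunit after its ubiquitin-like part is removed, read 28987 and 26229 in controls, then 30729 and 30428 in Bdh2 morphants and 20880 with ectopic Bdh2. Its difference was 0.15 (SE 0.16) between Bdh2 morphants and controls and -0.55 (SE 0.20) between the last array and Bdh2 morphants. The same differences were 0.25 (SE 0.17) and -0.57 (SE 0.20) for rack1, a scaffold on the small subunit, and both genes were within 0.10 of 0 in both comparisons after quantile normalisation.

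Genes that build the ribosome had medians that kept their sign in both comparisons with Bdh2 morphants under either scaling. These 2 comparisons share the Bdh2 morphant arrays, so their opposite signs are not independent of each other. Of 52 tested genes of ribosome assembly and RNA polymerase I, 51 were higher in Bdh2 morphants, against 49.3% of all tested probe sets. The median was 0.34 as deposited and 0.38 after quantile normalisation. On the array with ectopic Bdh2, 43 were lower than in Bdh2 morphants, against 42.4%, with medians of -0.37 and -0.47. Against controls the medians of that array were 0.03 and -0.04. No gene of the list passed the threshold in any comparison. For all tested probe sets the share was 0% between Bdh2 morphants and controls. It was 0.527% for the ectopic array against Bdh2 morphants and 0.667% against controls. The nucleolar helicase gene ddx21 read 1348 and 1828 in controls, then 2260 and 3364 in Bdh2 morphants and 1654 with ectopic Bdh2, with no overlap between controls and Bdh2 morphants, at 0.81 (SE 0.34, adjusted p = 1.00). The snoRNP gene nhp2 differed by 0.69 (SE 0.30), and npm1b, a nucleophosmin gene, was the exception. It read 735 and 264 in controls, then 293 and 37.4 in Bdh2 morphants and 1151 with ectopic Bdh2, at -1.84 (SE 0.85) and, for the last array against Bdh2 morphants, 3.18 (SE 1.04, limma adjusted p = 0.321), with 1 Bdh2 morphant value under the filter intensity. Against Bdh2 morphants, the ectopic array was at -1.16 (SE 0.45) for tsr1 and -0.94 (SE 0.44) for gnl3, both of which act in maturation of ribosomal subunits.

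The proteins of the mitochondrial ribosome, a separate particle that translates the mitochondrial genome, had the same signs. Of 57 tested genes, 52 were higher in Bdh2 morphants, against 49.3% of all tested probe sets. The median was 0.20 as deposited and 0.19 after quantile normalisation. With ectopic Bdh2, 55 were lower than in Bdh2 morphants, against 42.4% of all tested probe sets, with medians of -0.48 and -0.60. Against controls 50 were lower, where the share of all tested probe sets was 41.4%, with medians of -0.29 and -0.40. No gene passed the threshold in any comparison. For all tested probe sets the share was 0% between Bdh2 morphants and controls. It was 0.527% for the ectopic array against Bdh2 morphants and 0.667% against controls. The mrpl36 intensity was 825 and 1002 in controls, then 1251 and 1953 in Bdh2 morphants and 664 with ectopic Bdh2, the groups being apart, and it differed by 0.77 (SE 0.36) between Bdh2 morphants and controls and by -1.22 (SE 0.44) between the last array and Bdh2 morphants. Differences between the lists were not tested.

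Translation factors whose mRNAs share the pyrimidine start gave a median of 0.08 in Bdh2 morphants against controls (14 of 21 higher, beside 49.3% of all tested probe sets). With ectopic Bdh2 the median was -0.29 from Bdh2 morphants as deposited and 0.15 after quantile normalisation, so its sign turned with the scaling. The poly(A)-binding protein gene pabpc4 read 5368 and 6175 in controls, then 4786 and 4867 in Bdh2 morphants and 1661 with ectopic Bdh2, well below the rest, at -1.53 (SE 0.31, adjusted p = 0.147) from Bdh2 morphants and -1.50 after quantile normalisation. The elongation factor gene eef1a1a read 180 and 245, then 59.1 and 13.1, and 211. Both Bdh2 morphant values lay under the filter intensity of 97.6, and the sizes of its differences are therefore not given. The naca gene, which codes for a subunit of a complex that meets nascent chains at the ribosome, differed by -0.52 (SE 0.24) with ectopic Bdh2 and by 0.04 after quantile normalisation.

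Among 16 tested regulators of mTORC1, Larp1 and Myc, 10 were higher in Bdh2 morphants than in controls, against 49.3% of all tested probe sets, with a median of 0.09. With ectopic Bdh2, 12 were higher than in Bdh2 morphants, against 57.6%, with a median of 0.15. None passed the threshold in any comparison. For all tested probe sets the share was 0% between Bdh2 morphants and controls. It was 0.527% for the ectopic array against Bdh2 morphants and 0.667% against controls. The eif4ebp3l gene, for a repressor of cap-dependent translation, read 998 and 2010 in controls, then 1189 and 2179 in Bdh2 morphants and 553 with ectopic Bdh2, and differed by -1.52 (SE 0.57) from Bdh2 morphants. The rheb gene, for the GTPase that activates mTORC1, read 392 and 280, then 247 and 185, and 465. It was lower in both Bdh2 morphants than in both controls, at -0.59 (SE 0.36), and highest with ectopic Bdh2, at 1.06 (SE 0.44) from Bdh2 morphants.

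**Figure D5:**
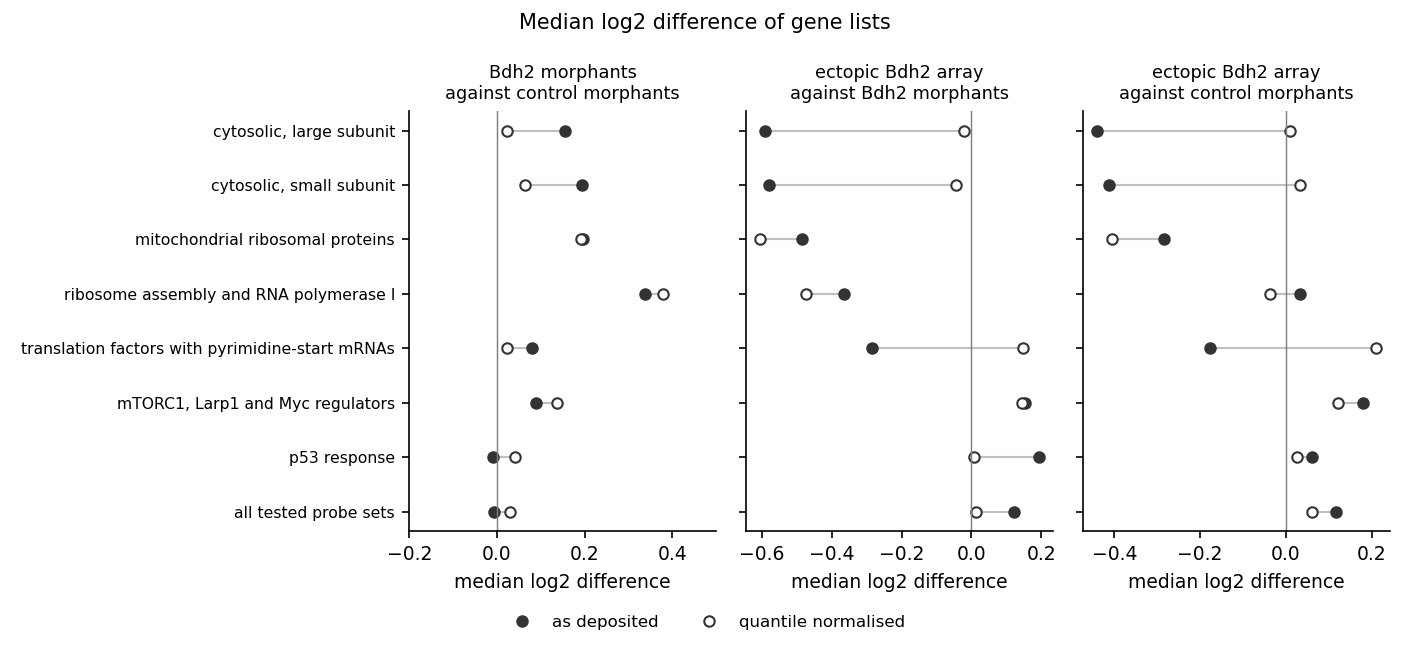
Median log2 difference (horizontal axis) of the 45 large and 28 small subunit genes, the other lists of the pathway and all 9301 tested probe sets (vertical axis) in the 3 comparisons, as deposited (filled) and after quantile normalisation (open). The cytosolic genes move to near 0 with quantile normalisation in each comparison, while the mitochondrial ribosomal protein genes and, in the first 2 comparisons, the ribosome assembly genes keep their sign at similar size.

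Signs of RNA quality and of the replicate number differed between arrays too. The 3'/5' ratio of the acta1 control probe sets, which is higher in degraded RNA, was 4.28 and 2.60 in controls, then 11.8 and 3.49 in Bdh2 morphants and 6.63 with ectopic Bdh2, and that of gapdh was 2.68 and 1.50, then 2.82 and 1.71, and 1.99. Both ratios were higher in replicate 1 than in replicate 2, in controls and in Bdh2 morphants alike, so they went with the replicate number. Between replicates 2 and 1 the member median differed by -0.19 in controls and 0.08 in Bdh2 morphants. With ectopic Bdh2 the acta1 ratio was exceeded only in Bdh2 morphant replicate 1, and the gapdh ratio lay within the range of the other arrays. The part of RNA quality in the values of the ribosomal protein genes was not tested.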

How the data were processed

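The authors deposited 1 table of probe set intensities on a linear scale for the 5 arrays, made with Affymetrix Expression Console per the submitters' processing notes. Its version, its summarisation and any scaling are not given in the sources. Arrays of this kind give no counting error, and their number limits the precision. Intensities were converted to log2(intensity + 16) with no further scaling. The 115 control probe sets were set aside, and the 9301 probe sets whose mean lay above the 40th percentile (an intensity of 97.6) were tested. One model with a mean per group was fitted to all 5 arrays with limma 3.58.1 in R 4.3.3, with an intensity trend (2 residual and 4.89 prior degrees of freedom), which assumes that the single array varies like the replicated groups. All p-values are two-sided, with the Benjamini-Hochberg adjustment over all 9301 probe sets and a threshold of 0.05. The fit was tested on simulated data for Bdh2 morphants against controls. At the threshold it recovered 0.3% of changes of 1 log2 unit, 16.6% of 2 units and 67.5% of 4 units. The changed probe sets were drawn at random from all 9301, with noise drawn separately for each probe set. The median SE of this comparison was 0.36 over all tested probe sets and 0.17 over the members. These shares therefore do not describe the ribosomal protein genes. Changes as small as the member medians were not simulated. Where a gene had several probe sets, the one with the highest mean stands for it. Symbols came from the array's annotation, and the gene identifiers of all 73 genes matched the reference gene table. Sequences were not used here.

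The members and the lists of the pathway were chosen with earlier results of these data known. Genes are named by role or as members of a close pair, as the 4 highest and 4 lowest differences of a comparison, or as up to 3 genes of another list with the smallest unadjusted p. In addition faua and rack1 stand for their list. Lists are described by counts and medians, without a test. Alternatives covered the scaling, the added constant, the filter, the moderation, the replicate number as a block, each array left out, the choice of probe sets and the threshold.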

Additional observations from a re-analysis of the deposited data

How the results depend on the processing

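The median of the 73 ribosomal protein genes depended on the scaling between arrays more than on any other choice run. For Bdh2 morphants against controls it was 0.18, 0.25 with arrays centred, 0.0434 after quantile normalisation and 0.10 with the curve of non-members. With that curve 61 of 73 genes were higher, against 5084 of 9301 tested probe sets. With 1 array left out the member median ran from 0.0702 to 0.24, lowest without control replicate 2. For the array with ectopic Bdh2 against Bdh2 morphants it was -0.59, -0.0294 after quantile normalisation, -0.0857 with the curve of non-members and -0.77 with arrays centred. Against controls it was -0.42, -0.52 with arrays centred, 0.0108 after quantile normalisation and -7e-04 with the curve of non-members. The large minus small subunit median was -0.04, -0.01 and -0.03 in the 3 comparisons, from -0.0807 to -0.0097 in the first with 1 array left out, and 0.0506 in the second with the curve of non-members. The cause was not tested.

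Over all probe sets, Bdh2 morphants against controls gave 0 calls, 3 with the replicate block and from 0 to 5 with 1 array left out. The second comparison gave 49 calls, 17 without the filter, 0 without the intensity trend, 151 with the replicate block, 77 at a threshold of 0.10 and from 0 to 222 with 1 array left out. The third gave 62 calls, 38 without the filter, 40 without the trend, 135 with the block and from 84 to 132 with 1 array left out. Of the member genes, 0 were called under any setting other than without control replicate 1 (7) or 2 (10) in the second comparison. Signs of uncalled differences of the named members turned in 27, 20 and 31 of 403 recomputed values per comparison. Arrays share only a number in the labels. Differences between the numbers in controls and in Bdh2 morphants correlated at r = 0.538 over 9301 probe sets, and probe sets are no independent replicates.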
